A study of Mus musculus with 9 samples.

Results

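The mRNAs of the 6 CELF genes (*Celf1*, *Celf2*, *Celf3*, *Celf4*, *Celf5* and *Celf6*) were followed through an RNA immunoprecipitation in which the CELF2 protein was the bait. The RefSeq transcript rows of the deposited table that matched these genes were taken, 68 rows of 107384, and they were read both summed per gene and one by one. A further 20670 rows matched no gene, and any CELF transcript among them is not counted here. The 6 genes are among 21250 protein-coding genes with a row.

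CELF proteins bind RNA through RNA recognition motifs and favor GU-rich sequence. In the nucleus they regulate alternative splicing, and in the cytoplasm they act on mRNA stability and translation. CELF1 and CELF2 are found in many tissues, while CELF3, CELF4, CELF5 and CELF6 are best known from the nervous system. The mRNA of an RNA-binding protein can itself be bound by that protein or by its relatives, and the levels below address which CELF mRNAs were recovered with CELF2.

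All 9 libraries came from cortex of KI mice on postnatal day 0, heterozygous for CELF2 p.R493H, a missense change in the region of the protein that holds nuclear localization signals, and from what the study describes as the cytoplasmic fraction. The mostly nuclear RNAs *Malat1*, *Neat1* and *Meg3* were present in all libraries, with a summed level, in counts scaled to library size (CPM), of 3626 to 4203 CPM in input, 4973 to 6870 CPM in the RIPs with the CELF2 antibody and 4360 to 6524 CPM in those with IgG. There was no wild-type group, and the counts do not separate the mutant from the reference allele of *Celf2*. For the 3 CELF2-KI RIPs the fraction was incubated with 10 µg of a rabbit antibody against CELF2 for 3 hours. The 3 IgG RIPs received 10 µg of normal rabbit IgG for the same time, and the 3 input samples are RNA of the fraction set aside without precipitation.

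Total estimated counts lay between 15919600 and 20052716 in the CELF2-KI RIPs, between 17365561 and 28773130 in the IgG RIPs and between 69125700 and 105116427 in input. Rows without a gene match held 21.1% to 43.5% of the counts in the IgG RIPs, against 11.6% to 12.6% in the CELF2-KI RIPs and 9.27% to 9.78% in input. All 6 markers of excitatory cortical neurons were present, and their summed level was 1153 to 1653 CPM in the CELF2-KI RIPs, 778 to 910 CPM in the IgG RIPs and 790 to 928 CPM in input. Among them *Neurod6* ran against the sum, at 53.9 to 67.6 CPM in the CELF2-KI RIPs and 80.3 to 112 CPM in input. The 4 markers of inhibitory neurons summed to 370 to 469 CPM, 228 to 281 CPM and 285 to 304 CPM in that order of conditions. The 5 markers of radial glia summed to 128 to 212 CPM, 336 to 407 CPM and 486 to 537 CPM in the same order, and the 5 erythroid genes to 92.7 to 94.99 CPM, 366 to 584 CPM and 877 to 1135 CPM. *Dlx2* ran against the inhibitory sum, at 19.9 to 27.0 CPM in the CELF2-KI RIPs and 52.7 to 59.8 CPM in input. Of the radial glia markers, *Pax6* (13.6 to 16.8 CPM and 13.5 to 15.4 CPM) and *Hes5* (21.0 to 44.7 CPM and 32.5 to 43.5 CPM) overlapped between these conditions. Of the 4 microglia markers, *P2ry12* was at 0 in all 6 precipitates and *Csf1r* at 0 in all 3 input samples. The part of any of these lists in the CELF values was not tested. The study describes the input as an aliquot of the fraction used for precipitation, so these levels describe RNA and not numbers of cells.

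Of the 6 CELF mRNAs, *Celf1* and *Celf2* were higher in the CELF2-KI RIPs than in both controls, *Celf5* was higher than in input, and *Celf3* was lower than in the IgG RIPs. *Celf4* and *Celf6* passed the test in no comparison. Levels are in CPM on library sizes scaled by TMM, a scaling that assumes most genes do not change. Calls required a change of at least 2-fold and a false discovery rate (FDR, Benjamini-Hochberg) under 0.01 over 15263 tested genes, from edgeR's quasi-likelihood test on all 9 libraries. Against IgG RIP, 2 of the 6 were called higher, where 13.4% of all tested genes were, and 1 lower, where 13.5% were. Against input, 3 of 6 were called higher (14.6% of all tested genes) and 0 lower (15.5%). Higher than both controls were 2 of 6, against 7.58% of all tested genes, and 0 were lower than both, against 9.52%. The median log2 fold change over IgG RIP was 0.58 for the 6 genes and -0.06 for all tested genes. CPM values are not divided by transcript length, so levels are compared here between conditions and not between genes.

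**Figure D1:**
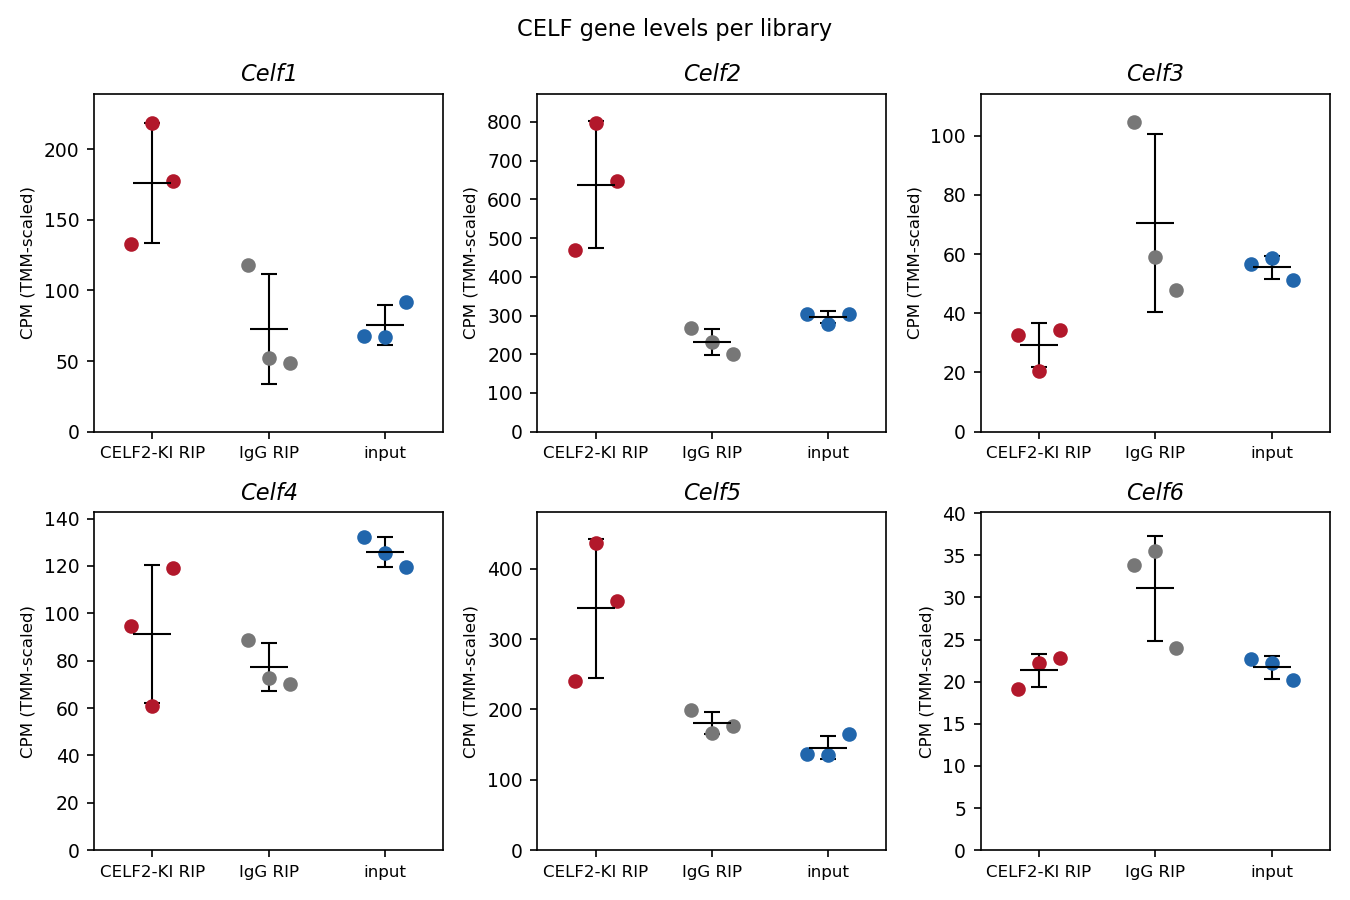
Level of each CELF gene in CPM (vertical axes, each starting at 0) in the 9 libraries. Points are replicates 1, 2 and 3 from left to right, and bars are mean and SD (n = 3); the CELF2-KI RIP points of *Celf1*, *Celf2* and *Celf5* lie above all 6 control points, and those of *Celf3* below them.

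*Celf2*, which encodes the protein that was precipitated, lies on chromosome 2 at chr2:6539694-7396341 (GRCm38.p6). It was at 470, 797 and 647 CPM in the 3 CELF2-KI RIPs, at 267, 231 and 200 CPM in the IgG RIPs and at 304, 278 and 305 CPM in the input samples. All 3 CELF2-KI RIPs were above all 6 controls, and the IgG RIPs were all below the input samples. Over IgG RIP its log2 fold change was 1.46 (SE 0.18, 95% interval 1.05 to 1.86, FDR 9.7e-05 from edgeR's quasi-likelihood test). Over input it was 1.11 (SE 0.18, 95% interval 0.71 to 1.51, FDR 0.000433, same edgeR test). The call over IgG RIP stood in 9 of 9 fits that left out a library. Over input the estimate fell to 0.92 without CELF2-KI RIP replicate 2 and to 0.95 without input replicate 2, both under 2-fold.

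*Celf1*, the closest relative of *Celf2* and a regulator of splicing and of the decay of GU-rich mRNAs, is on the same chromosome at chr2:90940259-91019497. Its level was 133, 218 and 177 CPM in the CELF2-KI RIPs, 118, 51.9 and 48.3 CPM in the IgG RIPs and 67.4, 67.3 and 91.7 CPM in input. The CELF2-KI RIPs were again above all controls, although IgG RIP replicate 1 stood well above the other IgG RIPs. On the log2 scale *Celf1* rose by 1.27 over IgG RIP (SE 0.33, FDR 0.00765, edgeR) and by 1.22 over input (SE 0.33, FDR 0.00818, edgeR). Both FDR values were close to the threshold, and the call over IgG RIP stood in 2 of 9 fits that left out a library, with estimates between 1.04 and 1.81. It was lost without CELF2-KI RIP replicate 2 (1.09) or 3 (1.27), without IgG RIP replicate 2 (1.09) or 3 (1.04), and without input replicate 1 (1.29), 2 (1.17) or 3 (1.29). The call over input stood in 4 of 9 such fits and was lost without CELF2-KI RIP replicate 2 (1.04) or 3 (1.22) and without input replicate 1 (1.14), 2 (1.03) or 3 (1.38). With the replicate number as a block, which ties same-numbered libraries of all conditions, the estimate over input was 1.23 with an FDR of 0.0181 from edgeR.

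*Celf5*, a brain-enriched member at chr10:81459227-81482730, was at 241, 436 and 354 CPM in the CELF2-KI RIPs. It was at 199, 167 and 177 CPM in the IgG RIPs and at 137, 135 and 165 CPM in input. The 3 conditions did not overlap: all CELF2-KI RIPs lay above all IgG RIPs, and these above all input samples. The log2 fold change over input was 1.24 (SE 0.19, FDR 0.00034, edgeR), which was called. Over IgG RIP it was 0.93 (SE 0.19, FDR 0.0023, edgeR), under 2-fold and therefore not called; without CELF2-KI RIP replicate 1 it was 1.13 and was called. The difference between these 2 contrasts is that of IgG RIP over input, 0.31 (95% interval -0.12 to 0.74), which was not called.

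*Celf3*, a neuronal member at chr3:94478285-94496786, moved the other way. It was at 32.5, 20.6 and 34.4 CPM in the CELF2-KI RIPs, at 105, 58.9 and 47.9 CPM in the IgG RIPs and at 56.7, 58.7 and 51.2 CPM in input. All 3 CELF2-KI RIPs were below all 6 controls. Against IgG RIP the log2 fold change was -1.28 (SE 0.28, FDR 0.00335, edgeR), which was called. Against input it was -0.93 (SE 0.28, FDR 0.0155, edgeR), which was not. It was -1.07 and called with DESeq2's Wald test, -1.05 and called without the filter on low counts, and called with every scaling tried other than TMM. Of the fits that left out a library, 0 of 9 called it, with estimates between -1.06 and -0.73. The fall against IgG RIP was -1.08 without CELF2-KI RIP replicate 2 and -0.88 without IgG RIP replicate 1, and the call was lost in both. It rested on predicted transcripts: with only the curated rows (NM and NR accessions) the estimate turned to 1.22, with an FDR of 0.396.

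*Celf4*, known from excitatory neurons, was at 94.5, 60.8 and 119 CPM in the CELF2-KI RIPs, at 88.9, 72.8 and 70.1 CPM in the IgG RIPs and at 132, 125 and 120 CPM in input. The 2 kinds of precipitate overlapped, and both lay below the input samples. On the log2 scale the differences were 0.24 over IgG RIP (95% interval -0.22 to 0.71), -0.46 against input (95% interval -0.92 to -0.00) and -0.70 for IgG RIP against input (FDR 0.0222, edgeR). None of these was called, and the sign over IgG RIP turned to -0.12 when libraries were scaled by total counts.

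*Celf6*, another member expressed in brain, lies at chr9:59578287-59609033. It was at 19.1, 22.2 and 22.8 CPM in the CELF2-KI RIPs, at 33.8, 35.5 and 23.9 CPM in the IgG RIPs and at 22.7, 22.2 and 20.2 CPM in input. CELF2-KI RIP and input overlapped, and the IgG RIPs lay above both. The log2 fold change was -0.54 against IgG RIP (SE 0.17, FDR 0.0197, edgeR), -0.02 against input (95% interval -0.39 to 0.35) and 0.52 for IgG RIP over input (FDR 0.031, edgeR), and none was called.

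**Figure D2:**
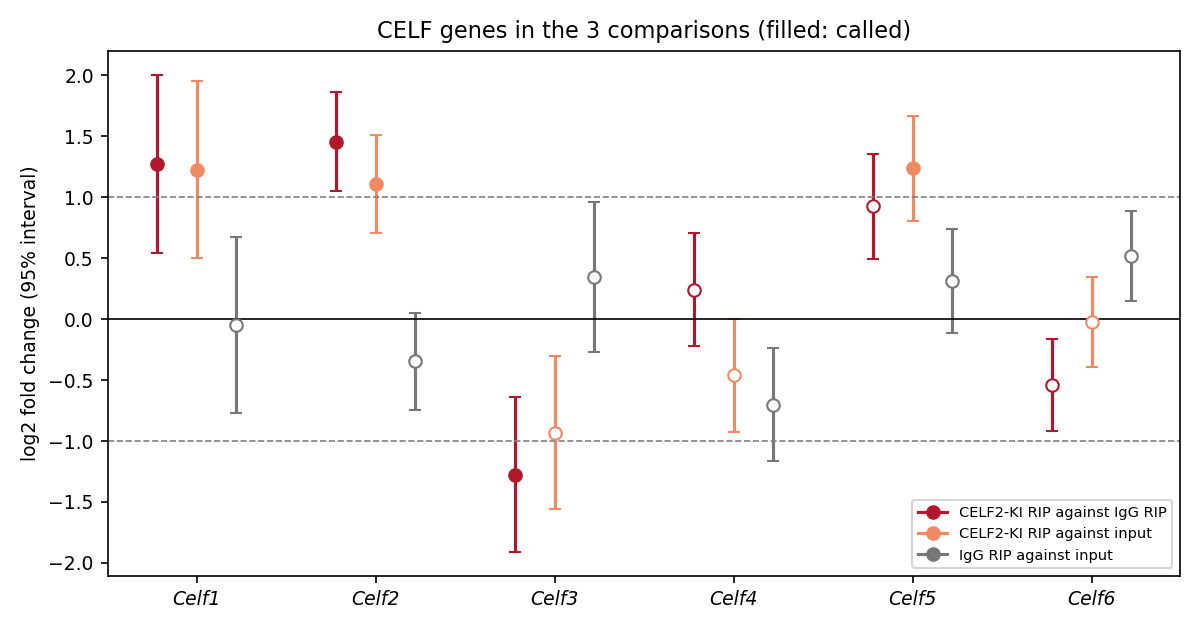
Log2 fold change of each CELF gene (vertical axis) in the 3 comparisons, with 95% intervals from edgeR's fit of all 9 libraries; filled points were called, and dashed lines mark 2-fold. *Celf1* and *Celf2* are filled over IgG RIP and over input, and no point of IgG RIP against input is filled.

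The 2 controls were also compared with each other, which asks how the CELF mRNAs differ between a precipitate with normal IgG and the starting RNA. Of the 6 genes, 0 were called higher in the IgG RIPs than in input (6.79% of all tested genes) and 0 lower (5.01%) with edgeR's quasi-likelihood test. *Celf4* and *Celf6* made up the 2 with an unadjusted p under 0.05, which 49% of all tested genes had. DESeq2's Wald test called 0, where it called 1119 of 15263 tested genes higher and 1126 lower.

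Part of these calls depended on the scaling. With total counts *Celf1* was at 0.89 over IgG RIP and 0.75 over input on the log2 scale, and *Celf2* and *Celf5* were at 0.63 and 0.76 over input, all under 2-fold and not called. Over input *Celf2* was called in 1 of the 5 scalings tried, *Celf1* in 1 and *Celf5* in 2, and over IgG RIP *Celf1* was called in 2. *Celf2* was called higher and *Celf3* lower than in the IgG RIPs in 5 of 5. *Celf3* was also called lower than in input, and so lower than both controls, in 4 of 5, at -1.38 with total counts. The median log2 fold change of all tested genes between CELF2-KI RIP and input was 0.19 with TMM and -0.27 with scaling by total counts, and against IgG RIP it was -0.06 and -0.42. Relative to that median, *Celf2* was 1.49 to 1.51 higher over IgG RIP and 0.90 to 0.92 higher over input on the log2 scale across the 5 scalings tried. *Celf1* was 1.31 to 1.33 and 1.01 to 1.03 higher, *Celf5* 0.96 to 0.98 and 1.02 to 1.04 higher. *Celf3* lay at -1.22 to -1.20 and -1.12 to -1.11 in the same 2 comparisons.

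A reading that needs no scaling is the share each gene held of all counts of the family in a library, since the library size cancels. These shares add up to 100%, so they are not independent of each other, and they are not corrected for length. *Celf2* held 47.5%, 51.2% and 47.8% in the CELF2-KI RIPs, 32.9%, 37.5% and 35.3% in the IgG RIPs and 42.2%, 40.5% and 40.5% in input. Its share was thus higher in every CELF2-KI RIP than in any control, and lower in every IgG RIP than in input. *Celf1* held 13.1% to 14.0% in the CELF2-KI RIPs, within the 8.40% to 14.6% of IgG RIP and above the 9.36% to 12.2% of input. The *Celf5* share, 24.3% to 28.1% in the CELF2-KI RIPs, likewise overlapped that in the IgG RIPs (24.5% to 31.2%) and exceeded that in input (19.1% to 21.9%). *Celf3*, *Celf4* and *Celf6* each held less of the family in every CELF2-KI RIP than in any control. *Celf3* was at 1.33% to 3.28%, against 8.45% to 12.9% in the IgG RIPs and 6.80% to 8.53% in input. *Celf4* was at 3.91% to 9.55%, against 11.0% to 12.4% and 15.9% to 18.4%. *Celf6* was at 1.43% to 1.93%, against 4.17% to 5.75% and 2.68% to 3.23%. Counts of *Celf1*, *Celf2* and *Celf5* together were 5.77, 14.0 and 6.69 times those of the other members in the CELF2-KI RIPs, 2.57, 2.69 and 3.00 times in the IgG RIPs and 2.40, 2.33 and 2.94 times in input; this grouping was chosen after the values were seen.

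**Figure D3:**
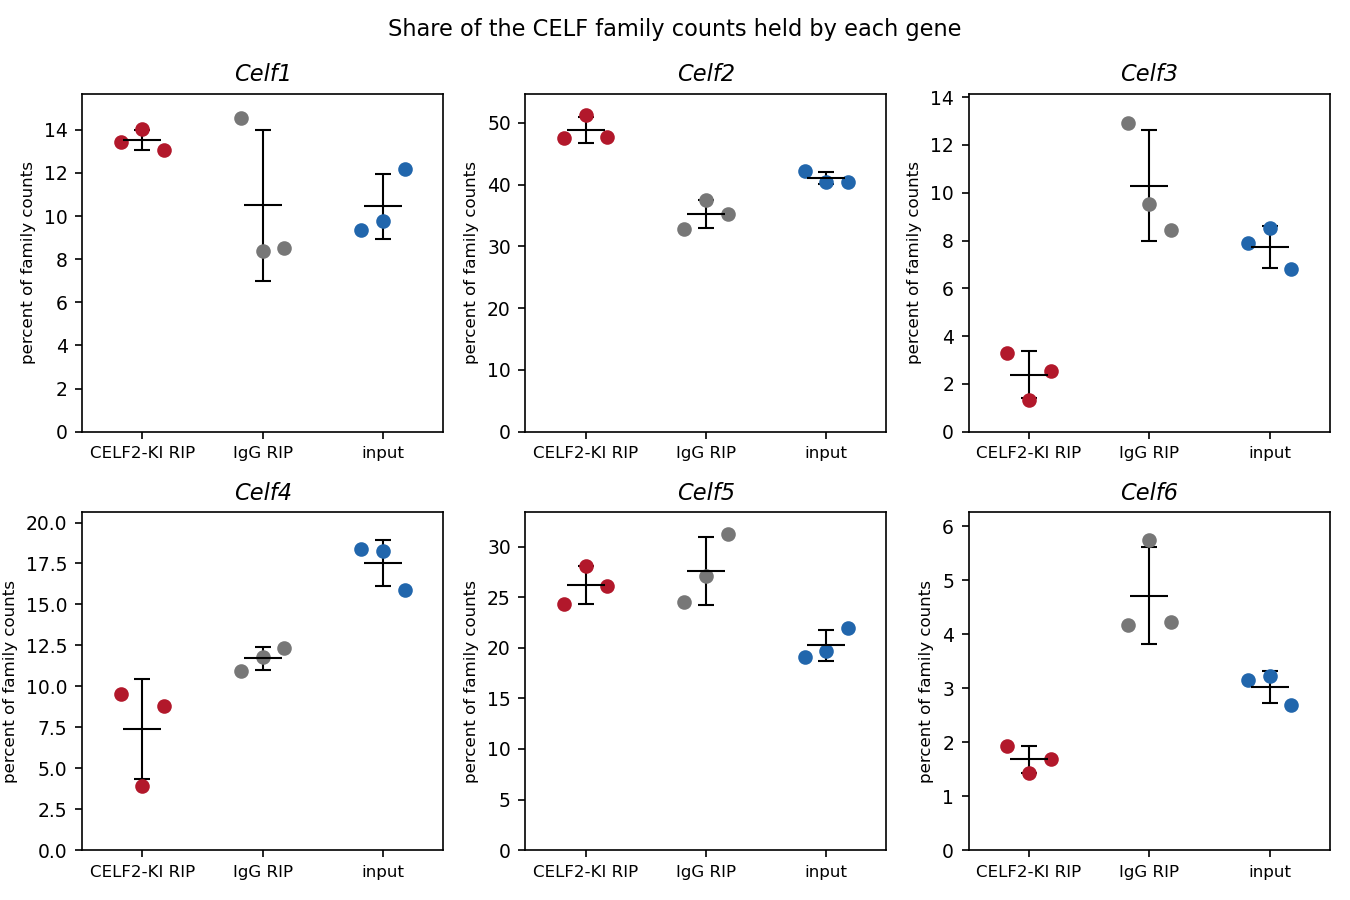
Percent of all CELF family counts held by each gene (vertical axes, each starting at 0) in the 9 libraries, with points for replicates 1, 2 and 3 and bars for mean and SD (n = 3). *Celf2* is highest and *Celf3*, *Celf4* and *Celf6* are lowest in the CELF2-KI RIPs without overlap with either control.

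The transcript rows carried far more spread than the genes. The common coefficient of variation between replicates was 0.995 for rows and 0.221 for genes. Kallisto divides reads that fit several isoforms among them, and the deposited table holds 1 estimate per row with no measure of how sure that division was. Of the 68 rows, 11 had no count in any library and 18 more failed the filter of at least 0.5 CPM in 3 libraries. The remaining 39 were tested, and a row at 0 in a condition passed only through the others. In 33 rows the mean share of the gene's counts reached 5% in at least 1 condition, 3 in *Celf1*, 6 in *Celf2*, 8 in *Celf3*, 5 in *Celf4*, 4 in *Celf5* and 7 in *Celf6*. The rows below the filter reached at most 410 counts in a library.

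Against IgG RIP, 4 of the 39 rows were called higher in the CELF2-KI RIPs, where 3.19% of 39129 tested rows were, and 0 lower (3.14%), with edgeR's quasi-likelihood test. All 4 belong to *Celf1* or *Celf2*. At an unadjusted p under 0.05 there were 17 rows (28.4% of all rows), and DESeq2's Wald test, which called 16.7% of all rows, called 9. Against input, 1 row was called higher (0.94% of all rows) and 1 lower (4.51%). No row was called higher than both controls with edgeR (0 of 39, against 0.496% of all rows), while 4 were higher at an unadjusted p under 0.05 in both comparisons (4.64% of all rows) and DESeq2 called 2 (1.93%). Lower than both controls were 0 rows with edgeR, against 865 of all 39129 rows, and 0 with DESeq2, against 2051. At an unadjusted p under 0.05 in both comparisons 3 rows were lower, and the share over all rows was not counted. With the replicate number as a block, 0 rows were called against IgG RIP and 0 against input. Of all 39129 rows, that setting called 358 higher and 312 lower against IgG RIP, and 66 higher and 608 lower against input.

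A further test asked whether a row changed differently from the rest of its gene (edgeR's diffSpliceDGE, FDR under 0.05 over 32889 rows). Between CELF2-KI RIP and IgG RIP 0 of the 39 rows had a changed share, where 1.67% of all rows did, and 9 had an unadjusted p under 0.05 (11.7% of all rows). Without IgG RIP replicate 1 there were 5 and without IgG RIP replicate 3 there were 3. The share over all rows in these fits is not given here, so these counts cannot be set against it. Between CELF2-KI RIP and input 2 rows had a changed share (1.2% of all rows), and between IgG RIP and input 3 did (1.9%). With the replicate block the last 2 counts were 1 and 1, and the share over all rows in that setting is not given here either.

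**Figure D4:**
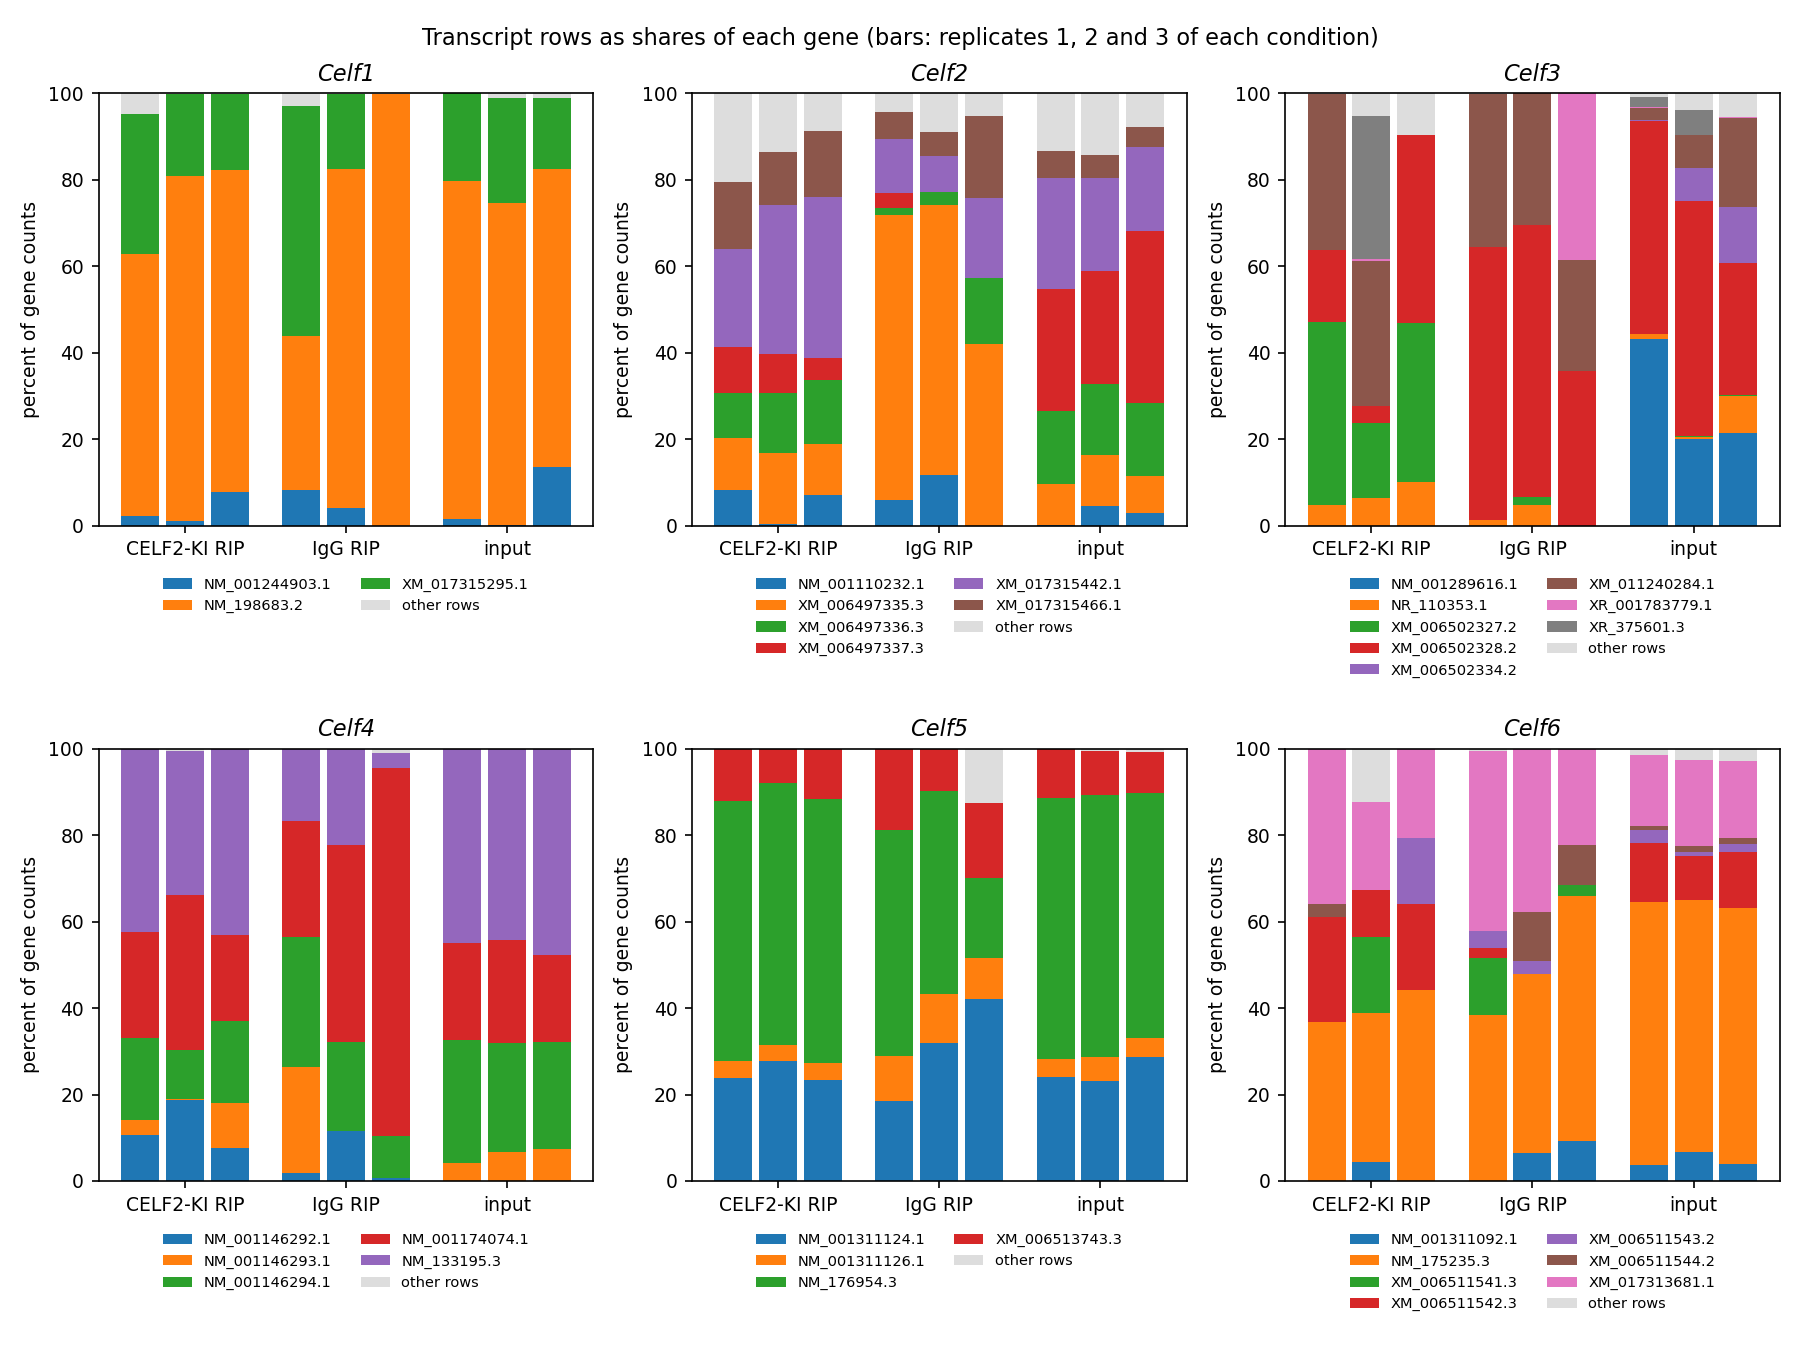
Percent of each gene's counts (vertical axes, 0 to 100) held by its transcript rows in every library, bars for replicates 1, 2 and 3 of each condition; rows under 5% in all conditions are pooled in gray. The leading *Celf2* row differs between the 3 conditions, and the *Celf5* rows keep nearly the same shares in the CELF2-KI RIPs and input.

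The leading row of *Celf2* differed between the conditions. XM_017315442.1 led in all 3 CELF2-KI RIPs, with 22.6%, 34.7% and 37.4% of the *Celf2* counts, XM_006497335.3 in all 3 IgG RIPs and XM_006497337.3 in all 3 input samples. In CPM, XM_017315442.1 was at 95.8, 224 and 203 in the CELF2-KI RIPs, 32.8, 19.1 and 37.2 in the IgG RIPs and 93.1, 71.9 and 70.4 in input. Its lowest CELF2-KI RIP value, that of replicate 1, was close to the highest input value. Over IgG RIP the row rose by 2.55 on the log2 scale (SE 0.38, FDR 0.00397, edgeR), which was called, and it was at 1.15 over input (FDR 0.0792, edgeR), which was not. Its share of *Celf2* did not pass the test over IgG RIP (FDR 0.483 from edgeR's diffSpliceDGE).

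XM_006497335.3 held 65.8%, 62.5% and 42.1% of the *Celf2* counts in the IgG RIPs. It held 12.1%, 16.4% and 11.8% in the CELF2-KI RIPs and 9.52%, 11.9% and 8.60% in input. In CPM it was at 173, 145 and 85.1 in the IgG RIPs, 51.4, 106 and 64.0 in the CELF2-KI RIPs and 34.6, 39.6 and 31.0 in input. The input samples thus lay below all precipitates. The log2 fold change of IgG RIP over input was 1.94 (FDR 0.0134) and that of CELF2-KI RIP over IgG RIP -0.86 (FDR 0.133), neither of which passed edgeR's test, and the change in share between IgG RIP and input had an FDR of 0.0553 (diffSpliceDGE in edgeR).

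XM_006497337.3 showed the reverse. It held 28.1%, 26.1% and 39.9% of the *Celf2* counts in input and 10.7%, 8.88% and 5.02% in the CELF2-KI RIPs. In the IgG RIPs it held 3.31%, 0% and 0%. Its share was lower in the IgG RIPs than in input (FDR 0.00188, edgeR's diffSpliceDGE), the only *Celf2* row to pass that test in any comparison. The level was 102, 86.8 and 144 CPM in input, 45.3, 57.3 and 27.3 CPM in the CELF2-KI RIPs and 8.68, 0 and 0 CPM in the IgG RIPs. The order was the same in all libraries, input above CELF2-KI RIP above IgG RIP, without overlap. Estimates of 0 here are assignments of shared reads and do not show that the isoform was absent.

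XM_017315466.1 was at 66.1, 78.7 and 83.2 CPM in the CELF2-KI RIPs, 16.7, 13.3 and 38.7 CPM in the IgG RIPs and 22.9, 17.8 and 16.3 CPM in input. All CELF2-KI RIPs were above all controls, with log2 fold changes of 1.73 over IgG RIP (FDR 0.0236) and 2.0 over input (FDR 0.0149), short of edgeR's threshold in both. XM_006497336.3 held 10.4% to 14.8% of the *Celf2* counts in the CELF2-KI RIPs, 16.3% to 16.9% in input and 1.73%, 2.90% and 15.2% in the IgG RIPs, with IgG RIP replicate 3 apart from replicates 1 and 2. NM_001110232.1 varied within conditions, from 0.368% to 8.19% in the CELF2-KI RIPs and from 0.00291% to 11.8% in the IgG RIPs.

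A pair of smaller curated rows of *Celf2* were also called over IgG RIP. NM_001110230.1 was at 23.4, 11.7 and 4.36 CPM in the CELF2-KI RIPs, at 0 CPM in all 3 IgG RIPs and at 9.88, 13.3 and 1.93 CPM in input. NM_001160292.1 was at 6.15, 32.7 and 19.6 CPM, at 0.0616, 0 and 0 CPM and at 1.85, 12.5 and 6.50 CPM in the same order. Neither row separated CELF2-KI RIP from input. With IgG RIP counts at or near 0, no fold is given for these rows. The test does not cover the division of reads among isoforms. The remaining 13 rows of *Celf2* beyond those named were each under 5% of the gene in every condition, and 4 of all its rows had no count.

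NM_198683.2 led the *Celf1* counts in 8 of 9 libraries, all but IgG RIP replicate 1. It was at 73.1, 141 and 111 CPM in the CELF2-KI RIPs, 41.3, 40.7 and 48.9 CPM in the IgG RIPs and 63.0, 59.8 and 74.6 CPM in input. On the row scaling CELF2-KI RIP lay above IgG RIP in all libraries and overlapped input. The overlap with input depends on this scaling. The rise of the row over IgG RIP was 1.31 on the log2 scale (SE 0.24, FDR 0.00901, edgeR), which was called, against 0.72 over input (FDR 0.0908, edgeR). The high *Celf1* level of IgG RIP replicate 1 came with XM_017315295.1, at 61.8 CPM there against 9.02 and 0 CPM in the other IgG RIPs. That row was at 39.0, 33.9 and 26.5 CPM in the CELF2-KI RIPs and at 16.3, 19.5 and 17.9 CPM in input, where the 2 conditions did not overlap. NM_001244903.1 ranged from 2.06 to 11.6 CPM in the CELF2-KI RIPs and from 0.197 to 14.8 CPM in input.

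*Celf3* had the most scattered rows, with 4 different leading rows over the 9 libraries. XM_006502328.2, the leading row in all 3 input samples, was at 33.5, 38.2 and 18.5 CPM there, at 65.0, 37.0 and 17.3 CPM in the IgG RIPs and at 4.84, 0.624 and 12.5 CPM in the CELF2-KI RIPs. All 3 CELF2-KI RIPs were below all controls, with a log2 fold change of -2.73 against IgG RIP (SE 0.96, FDR 0.103, edgeR) that did not pass. XM_006502327.2 went against the gene, at 12.4, 2.93 and 10.7 CPM in the CELF2-KI RIPs, at most 1.19 CPM in the IgG RIPs and at most 0.145 CPM in input. It did not pass either (FDR 0.169 over IgG RIP and 0.087 over input, edgeR). NM_001289616.1 was at 29.3, 14.0 and 13.0 CPM in input and at 0 CPM in all 6 precipitates. It passed the filter on low counts through input alone. Estimates of 0 are assignments of shared reads and do not show that the isoform was absent. It was the row called lower in the CELF2-KI RIPs than in input (FDR 0.0089, edgeR). In the IgG RIPs the row was also lower than in input but not called (FDR 0.0137, edgeR). Its share of *Celf3* differed from input in the CELF2-KI RIPs (FDR 0.0379) and in the IgG RIPs (FDR 0.0154) by edgeR's diffSpliceDGE. Since it was at 0 with both antibodies, it did not separate CELF2-KI RIP from IgG RIP. XM_011240284.1 held 36.1%, 33.6% and 0.00572% of the *Celf3* counts in the CELF2-KI RIPs and 35.5%, 30.4% and 25.8% in the IgG RIPs, and XR_375601.3 held 33.2% in CELF2-KI RIP replicate 2 and at most 5.78% elsewhere. XR_001783779.1 led in IgG RIP replicate 3, with 38.5%, and was at 0 in the other IgG RIPs. NR_110353.1 stayed between 0% and 10.0% of the gene, and XM_006502334.2 reached 13.0% in input replicate 3.

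In *Celf4* the input samples had a steady makeup. NM_133195.3 held 44.8%, 44.2% and 47.8%, NM_001146294.1 28.4%, 25.1% and 24.7% and NM_001174074.1 22.5%, 23.9% and 20.1% of its counts there. In CELF2-KI RIP NM_133195.3 held 42.5%, 33.5% and 43.0%, and in the IgG RIPs 16.6%, 22.3% and 3.48%. The IgG RIPs thus held less of this row than any other library, and NM_001174074.1 reached 85.2% in IgG RIP replicate 3. NM_001146292.1 was the row called higher in the CELF2-KI RIPs than in input, at 9.04, 9.29 and 7.66 CPM against 0 CPM in all 3 input samples (FDR 0.00803, edgeR). It passed the filter on low counts through the precipitates alone, and estimates of 0 in input do not show that the isoform was absent there. It was also present in the IgG RIPs, at 1.72, 8.33 and 0.58 CPM, so the fold over IgG RIP was 1.29 on the log2 scale with an FDR of 0.497 (edgeR). Its share of *Celf4* was higher than in input in the CELF2-KI RIPs (FDR 0.0111) and in the IgG RIPs (FDR 0.0166) by edgeR's diffSpliceDGE. NM_001146293.1 ranged from 0% to 24.3% of the gene over the IgG RIPs.

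**Figure D5:**
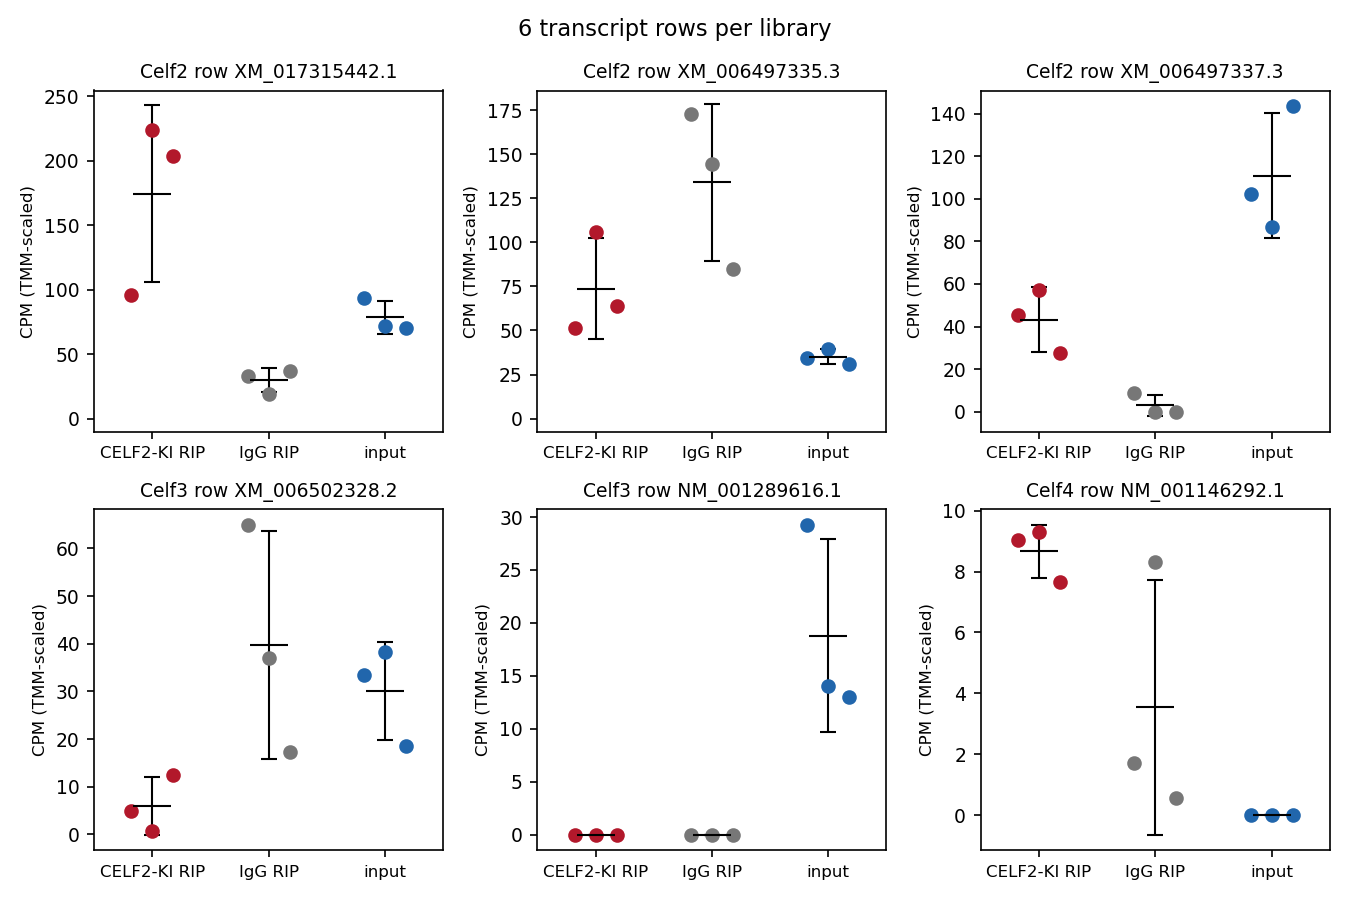
Level in CPM (vertical axes) of 6 transcript rows in the 9 libraries, scaled by TMM over the tested rows. Points are replicates 1, 2 and 3, and bars are mean and SD (n = 3). NM_001289616.1 is at 0 in all 6 precipitates, NM_001146292.1 is at 0 in input, and XM_006497335.3 and XM_006497337.3 stand in opposite order in the IgG RIPs and input.

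In *Celf5* the leading row held nearly the same share in the CELF2-KI RIPs and in input. NM_176954.3 held 60.2%, 60.6% and 61.2% of its counts in the CELF2-KI RIPs and 60.5%, 60.6% and 56.7% in input, but 52.3%, 47.1% and 18.5% in the IgG RIPs. Its level was 131, 214 and 182 CPM, 99.3, 97.9 and 111 CPM and 102, 78.8 and 33.1 CPM in that order of conditions, so the CELF2-KI RIPs were above all controls. The log2 fold change was 1.30 over IgG RIP (FDR 0.0593) and 0.78 over input (FDR 0.253), and neither passed edgeR's test. Both are on the row scaling and are not to be read against the fold changes of the gene. NM_001311124.1 held 23.3% to 27.8% in the CELF2-KI RIPs and 18.4% to 42.1% in the IgG RIPs. XM_006513743.3 held 7.92% to 12.2% and 9.65% to 18.7%. NM_001311126.1 held 3.71% to 3.92% of *Celf5* in the CELF2-KI RIPs, below the 4.14% to 5.58% of input and the 9.44% to 11.3% of IgG RIP, and its share passed no test.

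*Celf6* counts were led by NM_175235.3 in 8 of 9 libraries. Its level was 6.36, 6.17 and 8.41 CPM in the CELF2-KI RIPs, 12.7, 14.7 and 13.7 CPM in the IgG RIPs and 16.5, 15.5 and 14.1 CPM in input. All CELF2-KI RIPs were below all controls, with a log2 fold change of -0.97 against IgG RIP (FDR 0.039) and -1.14 against input (FDR 0.0235), neither of them called by edgeR. XM_017313681.1, at 6.22, 3.62 and 3.91 CPM in the CELF2-KI RIPs and 13.9, 13.4 and 5.36 CPM in the IgG RIPs, led in IgG RIP replicate 1 with 41.7% of the gene. XM_006511542.3 held 24.3%, 11.0% and 20.1% of the gene in the CELF2-KI RIPs, 13.8%, 10.2% and 13.0% in input and 2.40%, 0% and 0% in the IgG RIPs. The other 4 rows at 5% or more in a condition were each at 0 in at least 1 precipitate.

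Between IgG RIP and input 0 of the 39 rows were called higher (0.879% of all rows) and 0 lower (1.65%) with edgeR's quasi-likelihood test. At an unadjusted p under 0.05 there were 14 (26.3% of all rows), and DESeq2's Wald test called 11, where it called 13.5% of all rows.

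Genes known to act with or on CELF proteins were counted in the same fit. The list of 18 held the MBNL antagonists of CELF splicing, the ELAVL proteins, kinases and a cyclin tied to CELF1 phosphorylation, the myotonic dystrophy kinase *Dmpk*, the deadenylase *Parn* and subunits of the initiation factor eIF2. Over IgG RIP 4 of the 18 were called higher and 2 lower, where 13.4% and 13.5% of all tested genes were, with a median log2 fold change of 0.63. Over input 4 were called higher and 4 lower, where 14.6% and 15.5% of all tested genes were. Between IgG RIP and input 0 were called with edgeR, where 6.79% and 5.01% of all tested genes were called higher and lower. An unadjusted p under 0.05 with edgeR was found for 7 of the 18, where 49% of all tested genes had one. DESeq2's Wald test called 1, where it called 1119 of 15263 tested genes higher and 1126 lower. *Elavl1*, which encodes the mRNA-stabilizing protein HuR, was at 246, 290 and 254 CPM in the CELF2-KI RIPs, 112, 109 and 113 CPM in the IgG RIPs and 137, 128 and 123 CPM in input. With edgeR, *Elavl1* rose by 1.24 over IgG RIP (FDR 1.15e-05) and by 1.03 over input (FDR 2.02e-05) on the log2 scale. *Gsk3b*, a kinase upstream of CELF1, was at 175, 495 and 220 CPM in the CELF2-KI RIPs, with replicate 2 well above the others, at 103, 82.3 and 71.3 CPM in the IgG RIPs and at 83.8, 89.4 and 100 CPM in input. On the log2 scale *Gsk3b* rose by 1.80 over IgG RIP (FDR 0.00115, edgeR) and by 1.70 over input. *Cdk4*, a partner of cyclin D3, and *Eif2s2*, the beta subunit of eIF2, were lower than both controls. *Cdk4* lay at 35.9, 30.8 and 26.6 CPM in the CELF2-KI RIPs against 68.3 to 85.7 CPM in the IgG RIPs, a log2 fold change of -1.30 (FDR 3.58e-05, edgeR), and *Eif2s2* at 20.5, 17.6 and 14.4 CPM against 42.2 to 76.6 CPM, a change of -1.62 (FDR 0.000283, edgeR). *Elavl3* and *Elavl4*, the neuronal relatives of *Elavl1*, were called higher over IgG RIP, both at 1.09 on the log2 scale, and were at 0.32 and 0.28 over input, where they were not called. The 3 *Mbnl* genes were called in no comparison.

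The genes whose level followed each CELF gene most closely over the 9 libraries were found by Pearson correlation of log2 CPM over 15263 genes. The points are the same 9 libraries in 3 conditions and share their scaling, so the values are given as a description only. *Celf1* was followed by *Dach1* (r = 0.981), *Zbtb1* and *Ammecr1*, and *Celf2* by *Pid1* (r = 0.990), *Lmnb1* and *Slc25a46*. *Celf5* was followed by *Rtf1* (r = 0.998), *Rnf165* and *Fam219a*. *Celf3* was followed by *Nek3* (r = 0.982), *Golgb1* and *Amt*, *Celf4* by *Zfp456* (r = 0.956), *Pde12* and *Nkapd1*, and *Celf6* by *Gdpd3* (r = 0.987), *Myo1c* and *Grm7*. The nearest gene of *Celf4* was thus the least close of the 6.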

How the data were processed

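RIP-seq of CELF2 was deposited for 9 libraries. The authors trimmed reads with fastp 0.23.4, removed rRNA reads with Ribodetector 0.3.1 and quantified transcripts with Kallisto 0.51.1, and they deposited estimated counts per RefSeq transcript, without normalization. Rows were matched to genes by accession with a RefSeq table of GRCm38.p6; 86714 of 107384 rows matched. Counts were summed per gene, rounded, and filtered at 0.5 CPM in 3 libraries. edgeR 4.0.16 in R 4.3.3 fitted a mean per condition over all libraries, for genes and for transcript rows. DESeq2 1.42.0, other scalings, filters, row subsets, a replicate block and fits leaving out a library were alternatives. The gene test was tried on simulated counts with the spread of these genes, and the share test on simulated counts with less spread than the transcript rows had. The test of row fold changes was not simulated. Members and lists were chosen with earlier results of these data known. Named are all CELF genes, their rows with at least 5% of a gene's counts in a condition or called in a test, partner genes called against both controls, and the 3 genes most correlated with each member; *Elavl3*, *Elavl4* and the *Mbnl* genes were named after their values were seen. The study describes biological replicates. Reads carry no molecular identifiers, so intervals cover counting error and the spread of these libraries only. Between replicates the chi-square per gene was 11.9 to 44.2, above sampling noise. Deviations of same-numbered libraries correlated at 0.110, 0.117 and 0.123 between CELF2-KI RIP and input over 15263 genes, at -0.056, 0.043 and 0.014 between the RIPs with CELF2 antibody and with IgG, and at 0.030, 0.065 and 0.038 for IgG RIP and input. These values were largest between CELF2-KI RIP and input but small, and different-numbered libraries were not compared. Whether equal numbers mark the same preparation is therefore not known.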

Additional observations from a re-analysis of the deposited data

How the results depend on the processing

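Calls close to a threshold moved with the settings, and the causes were not tested beyond what each setting does by construction. The 2 CELF genes called higher than both controls became 0 with DESeq2's size factors, total counts, upper quartile scaling, TMM over coding and noncoding genes, no filter, glmTreat and rows of a matching version. They became 1 with DESeq2's Wald test, with curated rows and with the replicate block. The 3 called against IgG RIP became 0 with glmTreat, which tests against 2-fold itself, and 1 with version-matched rows. Against input, 3 genes were called higher; with total counts, upper quartile and TMM over coding and noncoding genes none of these was called and the 1 called was *Celf3*, lower (-1.38, -1.17 and -1.31). The count was 0 with glmTreat and version-matched rows, where *Celf4* and *Celf5* have no row.

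Leaving out a library gave 1 to 4 genes against IgG RIP, 1 to 3 against input, 0 to 3 against both and 4 to 7 partner genes (6 with all libraries). For transcript rows it gave 0 to 4 against IgG RIP, 0 to 3 against input, 0 to 1 against both and 0 to 3 for IgG RIP against input. Over all tested rows these fits called 651 to 1633 higher and 555 to 1484 lower against IgG RIP. Against input they called 59 to 560 higher and 666 to 2266 lower. For changed shares it gave 0 to 5, 0 to 2 and 1 to 6 in the 3 comparisons, and the counts over all rows in these fits are not given here. DESeq2's Wald test called 9, 6 and 11 rows where edgeR called 4, 2 and 0, and 2 against both controls where edgeR called 0. It also called more of all 39129 rows. Against input these were 2090 higher and 3630 lower, where edgeR called 368 and 1765.

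With the replicate block, 0 rows were called against IgG RIP and 0 against input, and 1 and 1 shares changed against input, where 2 and 3 had without it. Over all 39129 rows the calls also fell, from 1249 higher and 1230 lower to 358 and 312 against IgG RIP. Whether equal numbers mark the same preparation is not known.

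The direction turned for *Celf3* with version-matched (1.25 over IgG RIP, -3.63 for IgG RIP over input) and curated rows (1.22 and -3.56), and for *Celf4* over IgG RIP with total counts (-0.12) and upper quartile (-0.020). Leaving out a library gave -0.59 to 0.18 for *Celf1* and -0.052 to 0.57 for *Celf3* in IgG RIP against input, and -0.12 to 0.051 for *Celf6* in CELF2-KI RIP against input, all uncalled. The *Celf2* row NM_001110230.1 ranged from -0.059 to 1.15 in CELF2-KI RIP against input and the *Celf3* row XM_006502328.2 from -0.14 to 0.77 in IgG RIP against input, uncalled.

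An exact permutation test of a share, 3 libraries against 3, cannot go below a two-sided p of 0.1, so it could not pass and says nothing on stability. Depth limits the precipitates most: with the library sizes of the gene fit, 3 counts are about 0.23 CPM in an IgG RIP and 0.04 CPM in input.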
